A study of Danio rerio with 8 samples.

Results

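The comparison set the livers of fish held in river water rich in ammonia against the livers of fish held in river water poor in it. Male wild-type zebrafish of 3 months were kept for 96 h without water change in filtered surface water from 7 sites of the Hun River basin in China. Ammonia nitrogen in the water was above 2 mg/L at H3 and H4, which made the high ammonia sites, and 0.1 mg/L or less at H1, H2, H5, D and X, which made the low ammonia sites. The high ammonia sites thus held 2 of the 8 arrays of the series and the low ammonia sites 5, and the remaining array carried RNA of fish kept in control water, which was aerated and carbon-filtered tap water. H3 and H4 lie upstream and downstream of Shenyang City on the Hun River, H1, H2 and H5 lie on the same river, and D and X are the tributaries Dongzhou River and Xi River. For D and X the label of the sample source gives 97 h and the description 96 h. No fish carried a mutation or a transgene. Each array carried liver RNA pooled from the 5 fish of a tank, so that a site was represented by 1 tank and 1 pool, and the spread within a group is the spread between sites. H3 and H4 share slide 2 of the 2 array slides, together with H5 and X, whereas H1, H2, D and the control lay on slide 1. Ammonia was not the sole property of the water that set H3 and H4 apart or together. At sampling H3 had the lowest and H4 the highest dissolved oxygen of the 7 waters. The paper reports a further check of dissolved oxygen before the exposure, so these values need not be those of the tanks. The organic chemicals were not measured at H5 and X. Among those the paper measured, benzotriazole was found at H3 and H4 but not at H1, H2 or D. The part of such chemicals in the differences between the groups was not tested.

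Ammonia is the main nitrogenous waste of bony fish. It arises in the liver from the breakdown of amino acids, largely through glutamate dehydrogenase, and leaves across the gills with the help of Rhesus glycoproteins. When the water holds much ammonia this loss is slowed, and fish are known to bind ammonia into glutamine through glutamine synthetase or, in some species, to turn it into urea.

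Per array, the share of spots that stood well above background ran between 56.5% and 70.8%, no spot was saturated, and the 75th percentile of the signal lay between 922 (D) and 1801 (H4). Hepatocyte markers were well above background on every array, 19 of 19 genes, with medians of 16.69 and 16.57 at H3 and H4, 16.56 to 16.78 at the low ammonia sites and 16.58 in control water. All levels are quantile normalized log2 signals, and a difference of 1 is a 2-fold difference. The level of a gene is the mean over its probes. Over the 10981 genes, H3 and H4 correlated with Pearson's r = 0.869, which was the 20th highest of the 21 pairs of site arrays, although both lay on one slide. The distance between H3 and H4 was larger than the distance between the group means for 7857 of the 10981 genes (71.6%). The median distance between H3 and H4 was 0.53, whereas the median absolute difference of the group means was 0.24 with a median standard error of 0.36.

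Few probes passed a test of the difference. Of the 29932 probes tested, each detected well above background by 2 or more of the 7 site arrays, 3 passed limma's test at an adjusted p under 0.05, all higher at the high ammonia sites (0.01% of the probes tested) and none lower, while 1369 had an unadjusted p under 0.05. Among the 10981 genes with a symbol, 3 passed, all higher (0.0273%), and 509 had an unadjusted p under 0.05, 310 of them higher and 199 lower. A second count, with no test, took the genes at which H3 and H4 both lay above or both below all 5 low ammonia sites, which is called separated here. By this count 457 genes were separated and higher (4.16%) and 482 separated and lower (4.39%), and with a mean difference of at least 2-fold the numbers were 206 higher (1.88%) and 100 lower (0.911%). At the level of probes, 563 were separated at least 2-fold and higher (1.88%) and 354 lower (1.18%). The median difference over all genes was -0.03.

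The 3 genes that passed the test were dim everywhere except at H3 and H4. The gene with the lowest p is a locus known only by a clone-type identifier (probe A_15_P632746), shown in the plot of the widest gaps, and had levels of 8.54 and 8.18 at H3 and H4, against 4.47, 4.53, 4.60, 4.50 and 4.55 at H1, H2, H5, D and X and 4.45 in control water. Its difference was 3.83 ± 0.20 (SE, adjusted p = 0.00192). *mbnl3*, which encodes an RNA-binding splicing regulator of the muscleblind family, had 7.47 and 7.79 at H3 and H4, against 4.42, 4.44, 4.50, 4.41 and 4.81 at the low ammonia sites and 4.44 in control water, a difference of 3.11 ± 0.22 (SE, adjusted p = 0.00839). For *fam221a* the levels were 7.37 and 7.32 at H3 and H4, against 4.64, 4.91, 4.96, 5.07 and 4.73 at the low ammonia sites and 4.93 in control water. The difference of *fam221a* was 2.49 ± 0.21 (SE, adjusted p = 0.0204) and both of its probes were separated, though neither passed the test alone. In each of the 3 genes H3 and H4 lay close together and far from the 6 other arrays. The third probe that passed, A_15_P291421, of a transcript without a symbol here, had 8.09 and 8.14 at H3 and H4, against 5.08, 4.72, 4.40, 4.49 and 4.86 at the low ammonia sites (adjusted p = 0.025).

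None of these probes was well above background at a low ammonia site, so they entered the test through H3 and H4, and their levels at the low ammonia sites are bounds. With the dim values set to each array's lowest signal well above background, or to their own level where that was higher, the clone-type locus was at least 3.41-fold, *mbnl3* at least 2.05-fold and *fam221a* at least 1.61-fold higher at the high ammonia sites. In all, 74 probes were well above background at H3 and H4 and at no low ammonia site. Of these, 71 were separated at least 2-fold, while 1.88% of all probes were separated in this way and higher. Choosing probes by their detection at H3 and H4 alone nearly fixes this count, so it is no result about them. No probe and no gene passed with the slide as a term of the fit (lowest adjusted p of a gene 0.0568), nor when dim values were raised to the floor. Without H2, H3, H4 or H5 *mbnl3* lost its call, as did *fam221a* without H1, H2, H3, H4, H5 or X, while the clone-type locus kept it whichever array was left out.

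Genes that had a probe well above background on all 7 site arrays and were separated by the widest gaps included several genes of the sperm flagellum, of motile cilia and of meiosis. *sycp1*, a protein of the complex that pairs chromosomes in meiosis, had levels of 11.16 and 12.43 at H3 and H4, against 8.43, 8.66, 9.82, 8.31 and 9.04 at H1, H2, H5, D and X and 8.19 in control water. The difference of *sycp1* was 2.94 ± 0.50 (SE, adjusted p = 0.377), and all 4 of its probes were separated. *spag6*, a component of the central apparatus of the axoneme, had 11.20 and 11.27 at H3 and H4, against 9.67, 9.30, 9.88, 8.99 and 9.07 at the low ammonia sites and 8.98 in control water. Thus *spag6* was nearly the same at both high ammonia sites, and its difference was 1.85 ± 0.30 (SE, adjusted p = 0.35). For *hoatz*, known from mice as a gene of motile cilia and sperm, H3 and H4 had 10.03 and 12.19, against 7.43, 7.99, 9.21, 8.33 and 8.38 at the low ammonia sites. *ak7a*, an adenylate kinase of motile cilia, had 9.35 and 10.47 at H3 and H4, against 7.73, 7.67, 8.11, 8.11 and 8.41, and *cfap263*, a cilium and flagellum protein, had 10.27 and 11.91, against 9.13, 8.01, 9.46, 7.35 and 8.90. The other genes with the widest gaps on this side were *lrrc51*, *si:ch211-121a2.2*, *zgc:162239*, *ccdc83*, *rabepk*, *ccnd3* and *zgc:114130*, with differences between 1.296 (*zgc:114130*) and 2.94 (*si:ch211-121a2.2*). The probes of *ccnd3*, a D-type cyclin of the G1 phase, disagreed: the probe bright on all arrays had a difference of 0.74 and was not separated, and the other had 4.05 and was well above background at only 1 low ammonia site. Likewise the bright probe of *lrrc51* had 0.58 and was not separated, and its other probe had 3.84 and was well above background at no low ammonia site. None of these 12 genes passed the test across all genes.

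**Figure D1:**
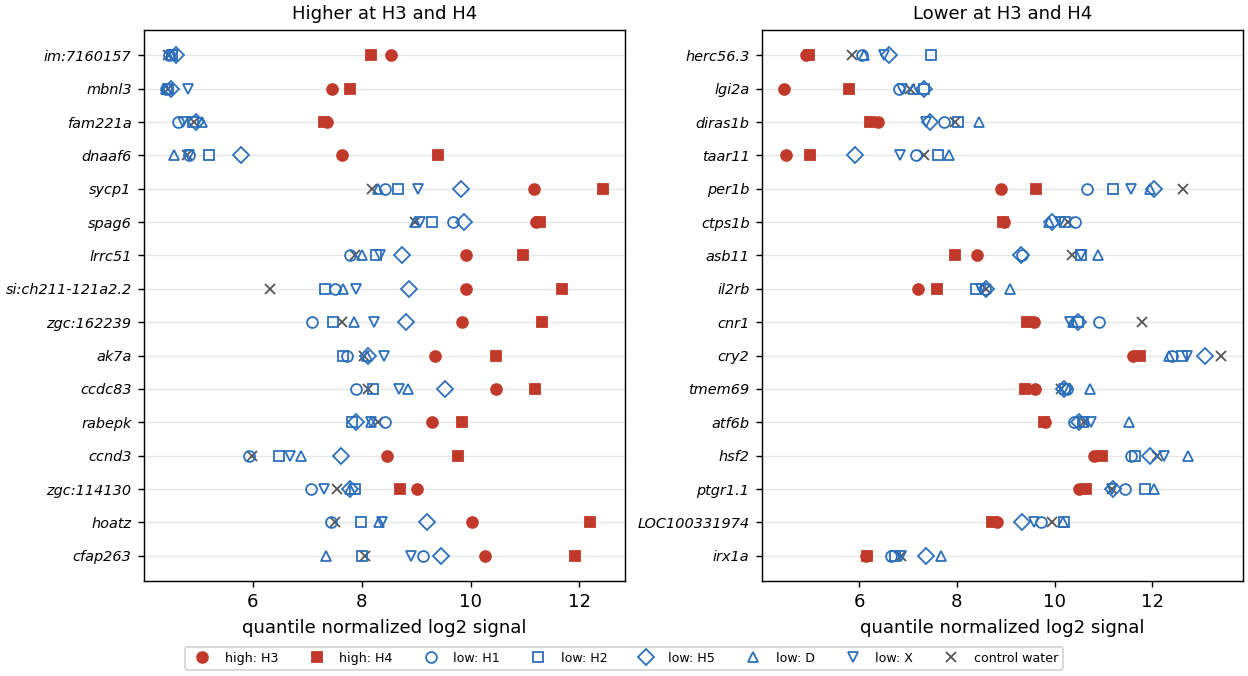
Quantile normalized log2 signal (x axis) of the genes with the widest gaps between the groups (rows), one symbol per array: filled red symbols are H3 and H4, open blue symbols the 5 low ammonia sites, crosses the control. In each row both red symbols lie on one side of all blue symbols; the first 4 rows of each panel are genes that were dim in one group, and among the higher genes H4 often lies further out than H3, as for *hoatz* with 12.19 and 10.03.

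A list of genes for the sperm flagellum and motile cilium, defined by the prefix of the symbol after values had been seen, covered 52 tested genes. These genes build the microtubule core of the beating tail of sperm and of motile cilia: its dynein arms, radial spokes, regulatory complexes and inner proteins. In this list 33 genes were separated and higher and none lower, and 28 of the 52 (53.8%) were separated at least 2-fold and higher, while 1.88% of all genes were. The median difference of the list was 1.68, against -0.03 for all genes, and 32 of the 52 had an unadjusted p under 0.05 and were higher. The list makes no independent support for the genes above, since it was chosen on them. Of 28 members well above background on all 7 arrays, 12 were separated at least 2-fold. At 44 of the 52 genes H4 was above H3.

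Dynein arms and their assembly were represented by *dnaaf6*, whose levels were 7.64 and 9.40 at H3 and H4, against 4.84, 5.19, 5.79, 4.56 and 4.84 at the low ammonia sites, where it was not well above background. *dnaaf6* was at least 3.82-fold higher at the high ammonia sites. *rsph9*, a protein of the radial spoke head, had 7.40 and 9.67 at H3 and H4, against 4.73, 4.79, 7.15, 4.85 and 5.76 at the low ammonia sites, so that H5 nearly reached H3. *cfap299* had 9.03 and 10.96 at H3 and H4, against 5.15, 4.43, 7.90, 5.49 and 6.96. At the low ammonia sites *cfap299* was well above background on 2 and *rsph9* on 1 of the 5 arrays, so the lower values of both are bounds. *cimap1b*, a ciliary microtubule associated protein, had 9.91 and 12.14 at H3 and H4, against 7.19, 7.54, 9.22, 7.43 and 8.21. Members at the other end were close in both groups: *cfap36* had 10.81 and 11.36 at H3 and H4, against 10.64, 10.58, 10.78, 11.01 and 10.60, and *cfap20*, the brightest member, 12.14 and 12.79, against 11.60, 11.66, 11.65, 12.31 and 11.79.

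Markers of the testis were also high at H3 and H4, and they were high at H5 as well. Of 26 tested testis markers, 9 were separated at least 2-fold and higher and 1 was lower (*nanos3*, a germ cell gene, named after its value was seen, which was dim at H3 and H4), while 1.88% of all genes were separated in this way and higher and 0.911% lower, and the median difference was 2.13. The list shares 4 genes with the flagellum list. The median level of the testis markers was 8.60 and 10.21 at H3 and H4, against 6.88, 7.39, 8.68, 7.43 and 7.35 at H1, H2, H5, D and X, and 6.82 in control water. Their summed linear signal was 15202 and 48692 at H3 and H4, against 4047 to 15307 at the low ammonia sites, the highest value being that of H5, and 4129 in control water. Thus H5, a low ammonia site, equalled H3 in these markers. Of the 26 genes, 25 were well above background at H3 and at H4, against 16 to 25 at the low ammonia sites and 18 in control water, so the markers were not missing from any array. At 16 of the 26 genes H5 was the highest low ammonia site. In bulk RNA a larger number of cells of a type and more RNA per cell cannot be told apart, and the part that testis RNA had in the differences between the groups was not tested.

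The defining testis genes were high at H5 as well. *insl3*, the hormone of the Leydig cells, which was chosen after its values were seen, had 11.06 and 11.97 at H3 and H4, against 5.62, 7.30, 11.27, 6.30 and 5.10 at the low ammonia sites and 6.02 in control water. H5 lay between H3 and H4, and the other 4 low ammonia sites lay far below. *gsdf*, a growth factor of Sertoli and granulosa cells, had 10.87 and 13.69 at H3 and H4, against 6.67, 9.15, 11.89, 8.49 and 7.69 at the low ammonia sites. Like *insl3*, which was well above background at 3 of the 5 low ammonia sites, *hormad1*, a protein of the meiotic chromosome axis, was detected at 3 of them. It was separated by a narrow gap, with 8.88 and 10.61 at H3 and H4, against 4.49, 6.29, 8.62, 6.32 and 6.73. Without H5 the flagellum list kept its count of 28 genes, while the number of genes separated at least 2-fold became 273 higher and 207 lower.

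**Figure D2:**
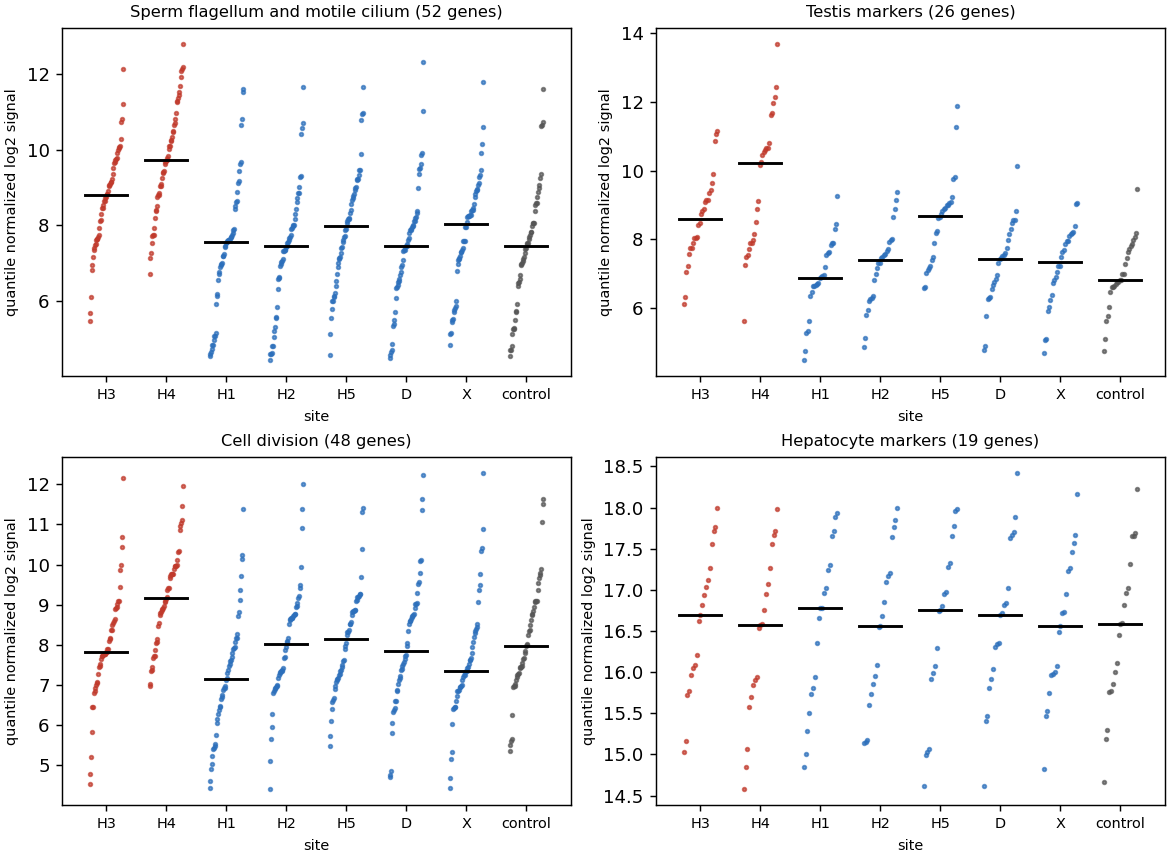
Quantile normalized log2 signal (y axis) of each gene of 4 lists on each array (x axis); points are genes in ascending order, black lines the medians, with red for high ammonia sites, blue for low ammonia sites and grey for control water. The medians of the testis markers were 8.60 and 10.21 at H3 and H4 and 8.68 at H5, whereas those of the hepatocyte markers lay between 16.56 and 16.78 on all arrays.

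For the separated genes H5 was often the low ammonia site next to H3 and H4, although over all genes it correlated least with H3 of the 5 low ammonia sites (r = 0.895) and most with H4 (r = 0.944). Among the 206 genes separated at least 2-fold and higher, H5 was the highest low ammonia site for 111 (53.9%), while it was so for 19.4% of all genes. Among the 100 lower genes H5 was the lowest low ammonia site for 47, while it was so for 24.1% of all genes. Control water lay below both H3 and H4 for 192 of the 206 higher genes and above both for 91 of the 100 lower genes. H4 was above H3 for 174 of the higher genes, and it was below H3 for 44 of the lower genes. The genes were chosen by H3 and H4 lying beyond 5 arrays, so the control counts were partly set by that choice. No share over all genes is given for the counts of control water or of H4 against H3. The flagellum, testis and cell division lists together held 122 genes, and 45 of these (36.9%) were among the 206 higher genes. Over all genes 1.88% were separated at least 2-fold and higher. These 45 genes made up 21.8% of the higher genes, and 1 of the lower genes was in these lists. The flagellum list was defined after values had been seen, so that choice partly set this overlap.

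Genes of cell division were the third group on the higher side. Of 48 tested genes, 11 (22.9%) were separated at least 2-fold and higher and none lower, while 1.88% of all genes were higher and 0.911% lower, and the median difference was 0.68. Among the separated members, *spc24*, of the kinetochore, had 7.76 and 9.77 at H3 and H4, against 5.53, 6.99, 7.62, 6.37 and 6.45 at the low ammonia sites, and its partner *spc25* had 8.92 and 9.88, against 6.45, 8.07, 8.25, 6.42 and 6.94. The level of *ndc80*, of the same complex, was 7.90 and 9.99 at H3 and H4, against 5.22, 6.96, 7.61, 7.59 and 7.36, but 7.96 in control water, above H3. These 3 genes did not pass the test, 1 of the 2 probes of *spc25* was not separated, and *spc24* was well above background at 2 and *ndc80* at 3 of the 5 low ammonia sites. *prc1b*, which bundles microtubules of the central spindle, had 7.78 and 9.10, against 4.61, 6.85, 6.97, 6.32 and 6.85, and was well above background at 3 of the 5 low ammonia sites. *pcna*, the sliding clamp of DNA replication, had a difference of 0.40 ± 0.49 (SE), and *cdc6*, a loader of the replicative helicase, had 6.47 and 9.15 at H3 and H4, against 5.50, 6.28, 7.91, 7.02 and 6.44, the groups overlapping in both. The median level of the list was 7.82 and 9.17 at H3 and H4, against 7.15 to 8.15 at the low ammonia sites and 7.97 in control water, so H3 lay within the range of the low ammonia sites. Cell division genes are active in dividing germ cells as well as in liver, and the share of testis RNA in these values was not tested.

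Among genes of the sex steroids 2 of 24 were separated, both higher, while 4.16% of all genes were separated and higher. Of the 24 genes 14 had a negative difference, and the median was -0.14, against -0.03 for all genes. *star*, which carries cholesterol into mitochondria at the start of steroid synthesis, had 9.16 and 10.66 at H3 and H4, against 6.96, 5.12, 9.01, 4.78 and 5.07 at the low ammonia sites and 6.46 in control water (adjusted p = 0.713). It was well above background at 2 of the 5 low ammonia sites, so the lower values are bounds. *cyp11c1*, an enzyme of the synthesis of 11-oxygenated androgens and of cortisol, had 8.74 and 10.18 at H3 and H4, against 7.82, 8.001, 8.73, 8.16 and 7.64. In both genes H5 lay just below H3, and both belong to the testis markers as well. *cyp17a1*, also of androgen synthesis, had 7.06 and 7.97 at H3 and H4, against 6.87, 6.82, 7.21, 7.32 and 7.21, and was not separated. Its 2 probes disagreed, with differences of 1.46 and -0.60, and neither was separated, so the gene value joins unlike probes.

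The list of ammonia and glutamine handling gave few separated genes and no call. Of 37 tested genes none was separated and higher, while 4.16% of all genes were, 3 were separated and lower, while 4.39% of all genes were, and none passed the test. Both counts are small and lie near the share over all genes, so they are no result about these genes. On simulated arrays, described below, the test recovered 0 of 200 probes changed 2-fold, so genes that did not pass may still differ. Of the 37 genes, 10 had a positive and 27 a negative difference, with a median of -0.24, against -0.03 for all genes. Both H3 and H4 lay within the range of the low ammonia sites for 16 of the 37 genes. No share over all genes is given for this count, nor for the positive and negative counts of any list. These counts are therefore no result about the genes.

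Glutamine synthetase, which binds ammonia to glutamate, was represented by 2 genes. *glula* had 12.50 and 10.85 at H3 and H4, against 9.88, 10.57, 11.92, 11.28 and 11.75 at H1, H2, H5, D and X and 11.08 in control water. H3 was the highest array and H4 lay among the low ammonia sites, so the difference of 0.59 ± 0.66 (SE, adjusted p = 1.0) was smaller than the distance between H3 and H4. *glulb* had 10.37 and 10.57 at H3 and H4, against 10.83, 9.94, 10.31, 10.55 and 9.34 (difference 0.28 ± 0.40, SE). Glutamate dehydrogenase, which releases or fixes ammonia, likewise had 2 genes. *glud1b* was bright, with 14.27 and 14.42 at H3 and H4, against 14.54, 14.60, 14.66, 14.91 and 14.55 at the low ammonia sites and 14.32 in control water. It was separated and lower by a small difference of -0.30 ± 0.21 (SE). Only some of its 4 probes were separated, and the brightest, with a difference of -0.15, was not. *glud1a* had 11.33 and 10.88 at H3 and H4, against 11.11, 11.01, 10.86, 11.92 and 11.51 (difference -0.18 ± 0.34, SE). Of the Rhesus glycoproteins, which let ammonia pass the membrane, *rhbg* had 10.77 and 9.71 at H3 and H4, against 9.87, 9.604, 10.29, 10.63 and 11.05 (difference -0.05 ± 0.47, SE). The 3 probes of *rhbg* differed: the brightest had a difference of 0.02, another -0.56 and the dimmest 0.40. None was separated, and the dimmest was well above background at only 1 high and 2 low ammonia sites. *rhcga* was dim, well above background at 1 high and 1 low ammonia site.

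The genes of the list that were separated by at least 2-fold were *ctps1b* and *asns*, both of enzymes that spend glutamine. Other genes of such enzymes in the list were not separated: *ctps1a* (difference -0.009), *gfpt1* (-0.16), *nadsyn1* (-0.24) and *ppat* (-0.57). *ctps1b*, a CTP synthase that takes the amide nitrogen of glutamine or free ammonia, had 8.96 and 8.94 at H3 and H4, against 10.42, 10.22, 9.95, 9.89 and 10.12 at the low ammonia sites and 10.27 in control water. The difference of *ctps1b* was -1.17 ± 0.23 (SE, adjusted p = 0.402), and both of its probes were separated. *asns*, the asparagine synthetase, which also draws on glutamine and is a target of the amino acid response, had 8.68 and 8.21 at H3 and H4, against 10.63, 9.69, 9.98, 9.25 and 8.68 at the low ammonia sites and 8.70 in control water. Here X and the control were at the level of H3, and neither of the 2 probes of *asns* was separated alone.

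**Figure D3:**
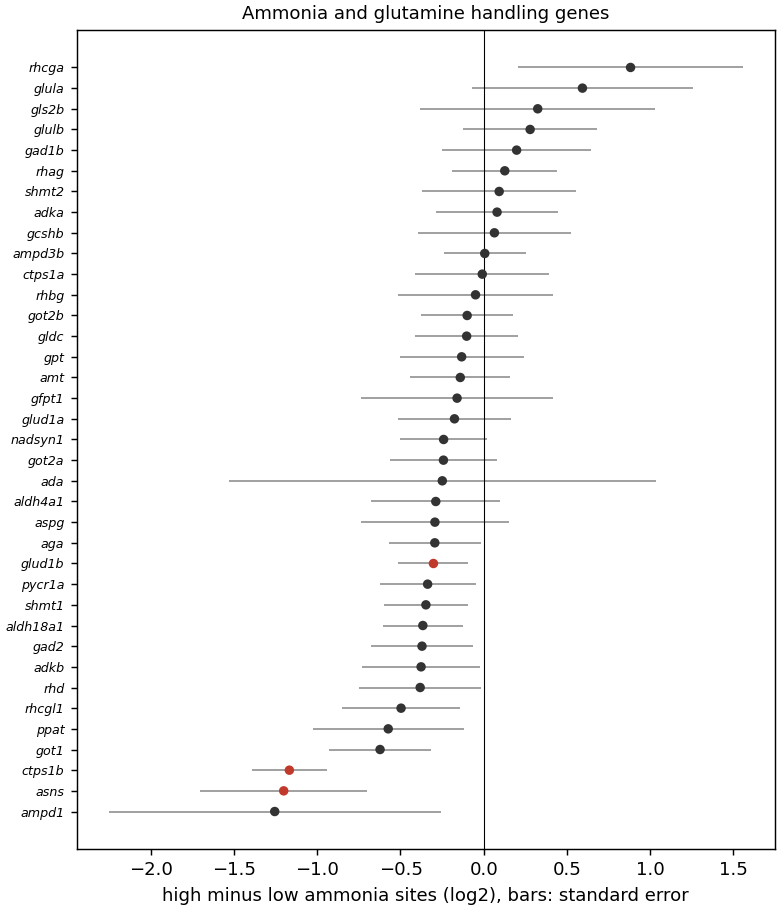
Difference of the mean log2 level, high minus low ammonia sites (x axis), of the 37 tested genes of ammonia and glutamine handling (rows), with bars for the standard error of the limma fit; red points are the 3 separated genes. The differences ran between -1.26 and 0.88 and most bars reach 0 or come near it.

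In the urea cycle and urate breakdown 1 gene was separated and lower, while 4.39% of all genes were. *aqp9a*, an aquaglyceroporin that also passes urea, was that gene, of 18 tested, with 7.86 and 7.43 at H3 and H4, against 8.50, 8.59, 8.21, 8.78 and 9.15 at the low ammonia sites and 8.16 in control water (difference -1.003 ± 0.30, SE, adjusted p = 0.681). The brighter of its 2 probes had a difference of -0.94 and was not separated. Its dimmer probe was separated (-1.07) but was well above background at only 1 high ammonia site. *arg2*, the mitochondrial arginase, which splits arginine into urea and ornithine, had 14.79 and 14.33 at H3 and H4, against 14.87, 14.71, 14.21, 14.51 and 14.89. The difference of *arg2* was -0.08 ± 0.27 (SE). *cps1*, *arg1*, *gls2a* and *ampd3a* had no tested probe under these symbols and were not analysed here.

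The gene with the widest gap on the lower side among genes bright on all arrays was a clock gene. *per1b*, which encodes a repressor of the circadian clock, had 8.91 and 9.63 at H3 and H4, against 10.67, 11.19, 12.04, 11.96 and 11.57 at H1, H2, H5, D and X and 12.63 in control water. Both high ammonia sites lay below all 6 other arrays, and the difference was -2.22 ± 0.43 (SE, adjusted p = 0.402). *cry2*, a cryptochrome and partner of the period proteins, had 11.60 and 11.75 at H3 and H4, against 12.41, 12.61, 13.08, 12.35 and 12.71 at the low ammonia sites and 13.40 in control water. The clock runs in most zebrafish tissues as a loop in which Bmal and Clock switch on the period and cryptochrome genes, whose products then hold Bmal and Clock back, and its genes follow the time of day and light.

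Of the 37 tested clock genes 7 were separated and lower and 2 separated and higher, while 4.39% and 4.16% of all genes were. *bhlhe40*, a clock-linked repressor, had 10.55 and 10.22 at H3 and H4, against 11.57, 11.24, 11.02, 11.34 and 11.43. The remaining lower genes, named to complete the count after their values were seen, were *tefa*, *cry1a*, *per3* and *cry5*, with differences between -0.88 (*tefa*) and -0.58 (*cry5*). On the opposite side stood *bmal1b*, with 9.47 and 8.65 at H3 and H4, against 8.60, 8.53, 6.38, 6.01 and 7.56 at the low ammonia sites and 5.18 in control water, and *bmal1a* with a difference of 0.43, where H2 reached the level of H3 and H4 to the second decimal. H1 and H2 nearly reached H4 for *bmal1b*. This gene was well above background at 3 of the 5 low ammonia sites, so its lower values there are bounds. Its level in control water lay below the lowest signal well above background on any array (5.653) and is a bound too. *nfil3-5*, a transcriptional repressor of the clock output, had 13.92 and 12.87 at H3 and H4, against 13.04, 12.09, 10.80, 11.53 and 10.63, and H1 lay above H4. No clock gene passed the test across all genes, and the median difference of the list was -0.10.

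**Figure D4:**
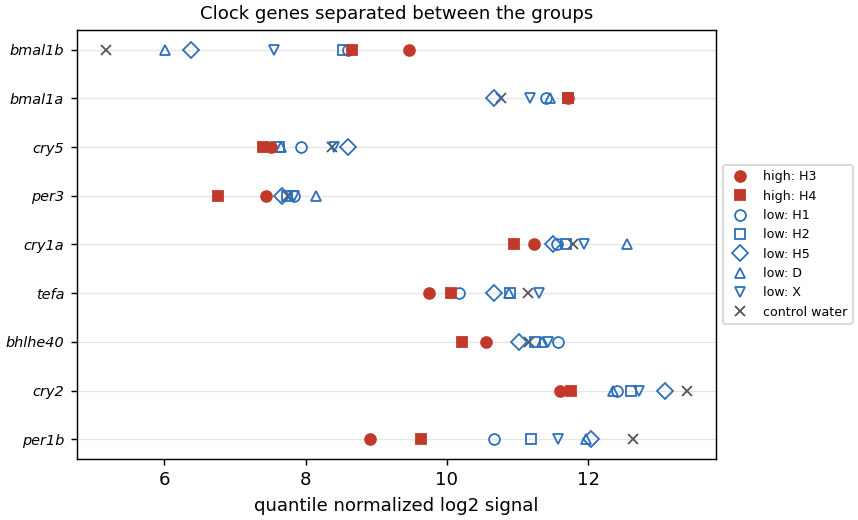
Quantile normalized log2 signal (x axis) of the 9 clock genes (rows) at which H3 and H4 lay on one side of all low ammonia sites; filled red symbols are the high ammonia sites, open blue symbols the low ammonia sites and crosses the control. The period and cryptochrome genes lie to the left at H3 and H4 and the 2 Bmal genes to the right, with the widest gap at *per1b* (8.91 and 9.63 against 10.67 to 12.04).

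Further genes with wide gaps on the lower side had varied roles. *il2rb*, the beta chain of the interleukin-2 receptor, had 7.21 and 7.60 at H3 and H4, against 8.57, 8.40, 8.60, 9.09 and 8.50 at the low ammonia sites. *hsf2*, a heat shock transcription factor, had 10.81 and 10.98, against 11.56, 11.65, 11.95, 12.72 and 12.23, and *atf6b*, a sensor of stress in the endoplasmic reticulum, 9.81 and 9.79, against 10.40, 10.59, 10.49, 11.53 and 10.74. In these genes the values of H3 and H4 were close to each other and below all low ammonia sites and the control, though 1 of the 3 probes of *atf6b* was not separated. The probes of *asb11*, an adaptor of a ubiquitin ligase, disagreed: 1 probe had a difference of -3.82 and was not well above background at H3 and H4, and the other, bright on all arrays, had -0.05 and was not separated. *cnr1*, a cannabinoid receptor, had 9.58 and 9.44 at H3 and H4, against 10.31 to 10.91 at the low ammonia sites, but its probes disagreed: 1 probe had a difference of -1.91 and was not well above background at H3 and H4, and the other had -0.09. *ptgr1.1*, *tmem69*, *LOC100331974* and *irx1a* completed the 12, with differences between -1.03 (*LOC100331974*) and -0.82 (*tmem69*), and only 1 of the 3 probes of *irx1a* was separated. Of genes that were dim at both H3 and H4, *diras1b*, of the Ras family, was at least 2.04-fold, *lgi2a* at least 1.25-fold and *taar11*, a trace amine receptor, at least 1.23-fold lower at the high ammonia sites. For *herc56.3* no bound could be given. The probe of *ubxn10* was among the 5 named probes with the lowest adjusted p (0.288), but the 3 probes of this gene ran from -0.69 to 3.04, so the gene value of 0.96 joins unlike probes.

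Amino acid breakdown and the response to amino acid shortage gave few separated genes. Of 45 genes of amino acid breakdown 3 were separated and lower and 2 higher, numbers near the 4.39% and 4.16% of all genes. Of these 45 genes 34 had a negative difference, with a median of -0.20, against -0.03 for all genes. *cth*, which makes cysteine from cystathionine, had 9.08 and 9.72 at H3 and H4, against 10.66, 10.19, 10.92, 10.46 and 10.51 at the low ammonia sites and 11.10 in control water (difference -1.15 ± 0.28, SE, adjusted p = 0.542). The brightest of the 3 probes of *cth* had a difference of -0.74 and was not separated. Its dimmest probe was not well above background at H3 and H4. *dbt*, of the dehydrogenase of branched-chain keto acids, had 9.86 and 9.43, against 10.23, 10.22, 10.36, 10.40 and 10.25. In the integrated stress response 3 of 30 genes were separated, all lower: *asns*, *eif4ebp3l* (difference -0.56) and *iars1* (-0.53). In this list 14 of the 30 genes had a negative difference, and the median was 0.04. *slc38a3a*, a glutamine transporter of the liver, was the only separated gene of 18 amino acid transporters, with 8.96 and 8.25 at H3 and H4, against 9.44, 9.48, 9.44, 9.66 and 9.23. Of the 18 transporters 12 had a negative difference, with a median of -0.36.

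Immediate early genes, which respond to stimuli within minutes, had unlike median levels at the 2 high ammonia sites. H3 was the highest of the 7 site arrays at 22 of 36 genes, while H4 lay within the range of the low ammonia sites at 29. No share over all genes is given for either count, so the counts are no result about this list. Their median level was 12.57 and 10.33 at H3 and H4, against 11.49, 10.43, 10.27, 10.42 and 10.65 at the low ammonia sites and 10.53 in control water. *nr4a1*, an orphan nuclear receptor, was the sole gene of this list separated and higher, with 10.21 and 8.37 at H3 and H4, against 7.52, 7.13, 7.24, 7.09 and 7.66 (difference 1.96 ± 0.47, SE, adjusted p = 0.53). The clock gene *per1b*, described above, is also in this list and was its sole gene separated and lower (difference -2.22). *junbb*, a subunit of the transcription factor AP-1, had 15.52 and 14.17, against 14.80, 13.53, 13.87, 14.30 and 14.11. Of 3 genes fixed by name, *hsp70l*, the inducible chaperone of the heat shock response, had 14.03 and 10.54 at H3 and H4, against 14.75, 11.19, 11.17, 11.37 and 11.70, and *gadd45aa*, of growth arrest, had 11.06 and 9.67, against 12.39, 8.91, 9.40, 8.63 and 9.51. *gadd45bb* had 9.70 and 8.27, against 11.30, 7.07, 7.39, 7.02 and 8.05. In these 3 genes H1 was the highest array and H3 the second. *il1b*, an inflammatory cytokine, was high at H1 alone (13.08), with 7.42 and 7.71 at H3 and H4 and 6.87 to 7.96 at the other low ammonia sites.

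**Figure D5:**
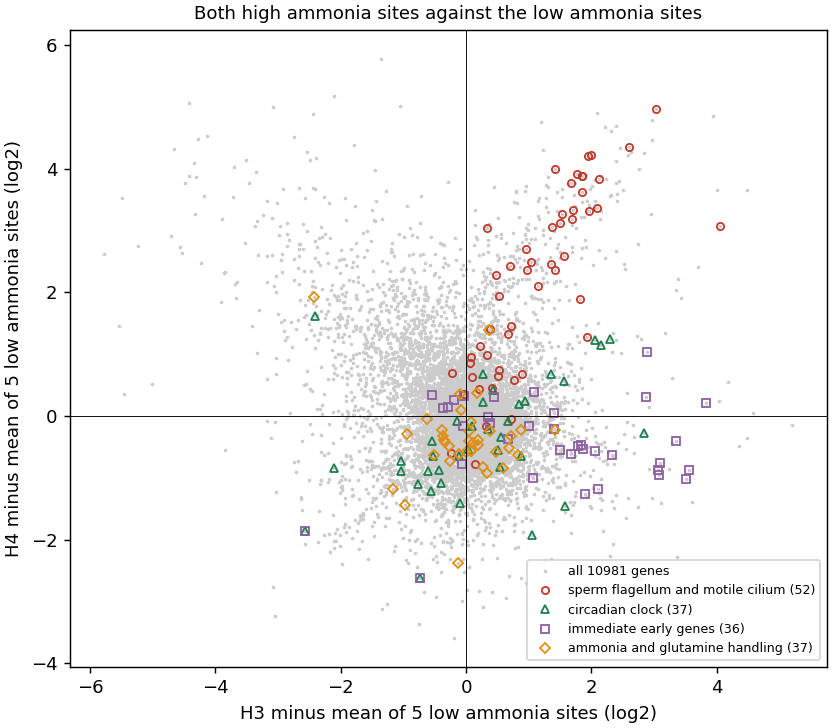
Level at H3 (x axis) and at H4 (y axis), each minus the mean of the 5 low ammonia sites on the log2 scale, for all 10981 genes (grey) and 4 lists; both axes share the low ammonia sites. The 52 flagellum genes lie mostly in the upper right, where both sites are higher. Immediate early genes spread mostly along the H3 axis, and the 37 ammonia genes lie mostly near the origin.

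Detoxification and stress lists gave few separated genes and no call. In the list of cytochrome P450 and conjugating enzymes, 4 of 44 genes were separated, all higher by less than 2-fold, while 4.16% of all genes were separated and higher: *cyp2p10* (difference 0.49), *cyp2x8* (0.43), *ugt5b1* (0.40) and *ugt2a3* (0.31). In this list 25 of the 44 genes were lower and the median difference was -0.05, and the gap of *cyp2p10* to the nearest low ammonia site was 0.0009. *cyp1a*, the main target of the aryl hydrocarbon receptor, had 13.41 and 12.27 at H3 and H4, against 12.41 to 13.46 at the low ammonia sites (difference 0.03 ± 0.41, SE). Of 48 genes of oxidative stress, *keap1a*, the inhibitor of Nrf2, had 11.17 and 10.90 at H3 and H4, against 11.63, 12.16, 11.80, 11.87 and 11.80 at the low ammonia sites, whereas *gclc*, the rate-limiting enzyme of glutathione synthesis, was separated and higher, with a difference of 0.53 ± 0.27 (SE), though neither of its 2 probes was separated alone. *mt2*, a metallothionein, had a difference of -0.01 ± 0.30 (SE). Of 49 heat shock and unfolded protein genes, *dnajb9a*, a chaperone of the endoplasmic reticulum, was higher, with 9.54 and 8.47 at H3 and H4, against 7.97, 8.40, 8.25, 7.05 and 8.21, but 9.23 in control water. *hspe1*, a mitochondrial chaperonin, was separated and lower (-0.84). The hypoxia list had 1 gene separated on each side of 33, *ndrg1a* (difference 1.23), with 13.42 and 13.82 at H3 and H4, against 13.32, 13.13, 12.54, 10.80 and 12.15, and *pgk1* (-0.52).

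Energy and lipid metabolism gave few separated genes as well. *tpi1a*, a triosephosphate isomerase, had 7.82 and 9.44 at H3 and H4, against 4.47, 4.49, 7.14, 4.73 and 5.06 at the low ammonia sites, where only 1 array, H5, was well above background. *pfkma*, a muscle-type phosphofructokinase, was dim at H3 and H4 and at least 1.83-fold lower. *pltp*, the phospholipid transfer protein, had 9.03 and 9.38 at H3 and H4, against 10.43, 13.53, 12.16, 10.88 and 9.48 at the low ammonia sites and 9.34 in control water, so its difference of -2.10 ± 0.99 (SE) came with a wide spread among the low ammonia sites. *acaca*, the acetyl-CoA carboxylase of fatty acid synthesis, had a difference of -0.71 and *cideb*, a lipid droplet protein, of 0.77. *cyp51*, of cholesterol synthesis, had 8.02 and 8.19 at H3 and H4, against 8.03, 9.67, 9.65, 8.73 and 9.01, and the groups touched at H1. None of 60 genes of fatty acid oxidation and 2 of 48 proteasome genes, both lower, were separated. Over all genes 4.16% were separated and higher and 4.39% lower. Of the 48 proteasome genes 39 had a negative difference (median -0.25), as had 22 of 27 genes of cholesterol synthesis (median -0.27). The median was -0.03 over all genes, 0.05 for fatty acid oxidation and 0.15 for fatty acid and lipid synthesis. Of 32 genes of ion transport and acid-base balance 2 were separated, both lower. *ca4a*, a carbonic anhydrase, was 1 of these 2 genes. Its separation came from the dimmer of its probes, for which H3 and H4 give only bounds, and its bright probe had a difference of -0.46 and was not separated. In the list of the acute phase and inflammation, *il6* was dim at H3 and H4 and at least 2.12-fold lower than at the low ammonia sites. Its level in control water (5.381) lay below the lowest signal well above background on any array (5.653). That level and those at H3 (6.625) and H4 (6.671) are thus bounds and cannot be ranked.

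Markers of neighbouring organs differed more between H3 and H4 than between the groups. The summed linear signal of 18 exocrine pancreas markers was 143702 and 1306198 at H3 and H4, against 309515 to 1000307 at the low ammonia sites and 1531454 in control water. That of 24 intestine markers was 74727 and 456268 at H3 and H4, against 52598 to 436457 at the low ammonia sites and 474889 in control water. None of the genes of these 2 lists was separated. *ins*, the insulin gene of the endocrine pancreas, had 12.84 and 15.63 at H3 and H4, against 13.51, 14.80, 14.01, 11.58 and 10.77 (difference 1.302 ± 1.22, SE). Their part in the differences between the groups was not tested.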

How the data were processed

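Total RNA of 8 liver pools was labelled with Cy3 and hybridised to one-colour Agilent zebrafish arrays of 43803 gene spots, 4 arrays on each of 2 slides. For every spot the authors deposited the scanner intensity with its background already taken off (processed signal), the median intensities of spot and background, and marks for dim and irregular spots. The file headers name Agilent Feature Extraction 11.5.1.1, while the submitters' processing notes name version 10.7. A deposited log2 table by the authors, used as an alternative, was found to be the same processed signals on the log2 scale, each array shifted by a constant close to its 75th percentile.

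Log2 processed signals were quantile normalized over the 8 arrays and spots of a probe were averaged (50 probes). Probes detected well above background by 2 or more of the 7 site arrays were kept, and 499 with irregular spots left out. Symbols came from RefSeq accessions through a table of the assembly GRCz12tu used for names only, and matched 26094 of 27655 RefSeq probes; 8262 Ensembl probes stayed unnamed. Genes listed but without a tested probe were not analysed.

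H3 and H4 were compared with H1, H2, H5, D and X by limma (lmFit and eBayes) with Benjamini-Hochberg adjustment over all probes or all genes. Sites were the replicates. Each site had 1 array here, with RNA pooled from 5 fish by the study's methods, so p-values measure the spread between sites. The ammonia groups rest on the water measurements of the study, not on the array labels. Second arrays of some sites were not analysed here.

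Genes named are the 12 per direction with the widest gap between the groups among genes well above background on all 7 arrays, 4 per direction among genes dim in one group, the 5 named probes per direction with the lowest p, genes of ammonia and urea handling, up to 4 separated and 2 abundant genes of a described list, and 11 genes fixed by name. The groups, lists and genes were chosen with earlier results of these data known; others are marked as chosen after their values were seen. Bounds of dim genes use each array's lowest signal well above background.

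Alternatives were 75th percentile scaling, the deposited log2 values, quantile normalization over 7 arrays, normexp correction of the median signal (offset 50), other filters, a floor for dim values, the slide as a term, slide 2 alone, marked probes kept, the control as a sixth low array, Hun River sites only, each array left out, and a robust trended eBayes. R 4.3.3, limma 3.58.1, Python 3.11.15, numpy 2.4.6, pandas 2.3.3 and matplotlib 3.10.9 were used. The fit was tested on simulated arrays in which all sites varied like the low ammonia sites and 200 of 29932 probes were changed. It recovered 0 of the 200 at a log2 difference of 1, 41.5% at 2 and 81% at 4. False calls were 0, 6 and 14. A gene that did not pass the test may thus still differ by 2-fold or more. The number of arrays limits the precision.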

Additional observations from a re-analysis of the deposited data

Results flagged for a closer look

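Of 136 gene levels and marker medians examined over the 5 low ammonia sites, 17 had a site far from the other 4, and chance flags about 1 in 20. H1 was apart with a high level of *hsp70l* (14.75), *gadd45aa* (12.39), *gadd45bb* (11.30), *il1b* (13.08) and *cnr1* (10.91) and a low level of *ndc80* (5.22) and *prc1b* (4.61). The H1 levels of *ndc80* and *prc1b* lay below the lowest signal well above background on any array (5.653), so they are bounds. D was apart with a high level of *cfap20* (12.31), *il2rb* (9.09), *tmem69* (10.72) and *pgk1* (15.31) and a low level of *cyp2p10* (8.48) and *cideb* (10.99). H5 was apart with a high level of *mt2* (15.55) and *tpi1a* (7.14) and a high median of 16 heart markers (9.71), and X with a high level of *mbnl3* (4.81), which was not well above background there.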

How the results depend on the processing

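The 100 genes named gave 1972 differences under the alternatives, of which 1940 kept their direction. No probe and no gene passed the test after normexp correction, with probes well above background on all 7 arrays, with dim values raised to the floor, with the slide as a term, on slide 2 only, with Hun River sites only, or with an intensity trend and robust eBayes (0 probes and 0 genes each), and without a filter on dim probes 1 gene passed. Leaving out an array gave 0 to 2 probes and 1 to 3 genes that passed. The number separated at least 2-fold was 917 probes and 306 genes. It was 353 probes and 134 genes after normexp correction, 270 and 93 with probes well above background on all 7 arrays, 587 and 201 with the floor, and 1540 and 507 on slide 2 only, where 2 low ammonia sites are left. Leaving out an array gave 947 to 4511 probes and 327 to 1526 genes, with 4511 probes and 1526 genes without H3, 3559 and 1179 without H4, and 1458 and 480 without H5. Of the separated genes 67.3% were higher, 59.4% under 75th percentile scaling or the deposited log2 values, 93.3% after normexp correction, 82.6% with the floor, 45.04% without H4 and 56.9% without H5. The flagellum list had 28 genes, 11 with probes well above background on all 7 arrays, where 28 genes could be counted, and 25 to 35 under the other alternatives, a count added after seeing the data. Without H3 or H4 the lone high ammonia array is assumed to vary like the low ammonia sites.

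The direction turned for *glula* (-0.1617 with the slide as a term or slide 2 only), *glud1a* (0.1122), *rhbg* (0.3194) and *hsp70l* (-0.0842) with Hun River sites only, *arg2* (0.0082) and *il1b* (0.241) with the slide as a term or slide 2 only, *herc56.3* (0.0486 with the floor), *ubxn10* (-0.0755 with probes well above background on all 7 arrays), *cyp1a* (-0.0432 under 75th percentile scaling and -0.0428 with the deposited log2 values) and *mt2* (0.0008 after normexp correction). With an array left out, the differences of these genes ran over *arg2* -0.3075 to 0.1509, *cdc6* -0.1617 to 2.519, *cyp17a1* -0.0309 to 0.8879, *cyp1a* -0.5338 to 0.6006, *gadd45aa* -0.0969 to 1.293, *glud1a* -0.4034 to 0.0525, *glula* -0.2286 to 1.416, *il1b* -1.44 to 0.1138, *ins* -0.0908 to 2.694, *mt2* -0.418 to 0.393, *pcna* -0.2271 to 1.035 and *rhbg* -0.5797 to 0.482, and that of *hsp70l* was lowest without H3 (-1.498) and highest, at 2, without H4. The cause was not tested. No paired analysis was possible because the replicate numbers were given in accession order and do not pair sites.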
